A study of Mus musculus with 13 samples.

Results

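Glycolysis turns glucose into pyruvate and lactate, and 10 of the 33432 gene entries of the expression table were followed here because they code for the glucose transporter and the enzymes of that path: Slc2a1, Hk2, Gpi1, Pfkp, Aldoa, Gapdh, Pgk1, Eno1, Pkm and Ldha. They were chosen by symbol, with earlier results of these data known, 1 gene for each step except the isomerase and mutase steps of Tpi1 and Pgam1. Of these, 10 of 10 passed the filter on low values. The study sequenced polyadenylated RNA of cells labelled mesenchymal stromal cells (MSCs), the fibroblast-like support cells of the marrow, in 13 libraries. They came from C57BL/6 mice, by sorting of marrow and compact bone cells. The groups were 4 recovered, 6 pre-leukemic and 3 healthy homeostatic libraries, and the protocols name pre-leukemic mice treated with MSCs, pre-leukemic mice and control mice as the sources, without saying which of them each group came from. For the genotype behind the leukemia, the sort markers, the age of the mice and the number of mice per library, nothing is stated in the labels, and the p-values therefore reflect the spread among these libraries, part of which may be technical. Levels are FPKM (fragments per kilobase of transcript, scaled for the size of the library), a unit that is per length, so that levels of different genes can be set side by side.

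In glycolysis, glucose enters through transporters such as Glut1 (Slc2a1), is trapped in the cell by hexokinase and committed by phosphofructokinase, and is then split and oxidised to pyruvate, with a net gain of ATP. Lactate dehydrogenase A turns pyruvate into lactate and regenerates the NAD+ that Gapdh needs. Several of these genes are known targets of the transcription factors HIF-1, which acts when oxygen is low, and MYC, and activated leukocytes and stromal cells of the poorly oxygenated marrow are both known for high glycolysis. Gapdh is also widely used as a reference gene for loading.

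Promoter windows were read for the members, since HIF-1 and MYC can both bind short motifs that hold the letters ACGTG. RefSeq start sites of build GRCm38.p6 were found for 10 of 10 members, with 16 windows of the 250 bases before the start. ACGTG, or CACGT, its other strand, was in 7 of the 16 windows and in at least 1 window of 6 of the 10 members, namely Slc2a1, Hk2, Aldoa, Pgk1, Pkm and Ldha, against 16.6% of all 32851 windows and 18.5% of the 27025 genes with a window. CACGTG, which holds the motif on both strands, counts as 2 matches. The windows of Aldoa start sites 2 and 3 overlap and hold the same match, so that site counts in both windows. For 4 members 1 window each is shown. Ldha has a second window, at chr7:46846832-46847081 (plus strand), which is not shown and has no match. Hk2 and Ldha have matches in the window shown. Both were higher in recovered than in pre-leukemic libraries on the deposited scale. Ldha was not called higher when immunoglobulin genes were left out of the total. Gpi1 and Gapdh have no match. They were higher in pre-leukemic than in healthy libraries on the deposited scale. On a scale that counts immunoglobulin RNA in the total they were not. Aldoa and Pgk1, which also have matches, were called in no comparison on the deposited scale, and neither was Pfkp, which has none. The 4 windows were picked with these changes known, so their pairing of matches with direction comes from the choice and is not a result. The 4 windows run 5′ to 3′ along the gene's strand, at chr6:82774455-82774704 (minus strand) for Hk2, chr7:46845554-46845803 (plus strand) for Ldha, chr7:34230337-34230586 (minus strand) for Gpi1 and chr6:125165774-125166023 (minus strand) for Gapdh, and capitals mark ACGTG or CACGT.
Hk2: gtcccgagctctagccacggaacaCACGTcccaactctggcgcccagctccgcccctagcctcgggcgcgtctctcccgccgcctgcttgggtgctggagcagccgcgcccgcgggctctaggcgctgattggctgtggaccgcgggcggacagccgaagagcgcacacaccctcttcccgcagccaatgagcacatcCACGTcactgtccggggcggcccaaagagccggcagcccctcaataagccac
Ldha: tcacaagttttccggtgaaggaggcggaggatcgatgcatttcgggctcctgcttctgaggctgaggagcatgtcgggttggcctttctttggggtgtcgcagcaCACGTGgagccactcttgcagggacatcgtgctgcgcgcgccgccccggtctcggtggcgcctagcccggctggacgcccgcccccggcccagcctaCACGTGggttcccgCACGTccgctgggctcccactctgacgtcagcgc
Gpi1: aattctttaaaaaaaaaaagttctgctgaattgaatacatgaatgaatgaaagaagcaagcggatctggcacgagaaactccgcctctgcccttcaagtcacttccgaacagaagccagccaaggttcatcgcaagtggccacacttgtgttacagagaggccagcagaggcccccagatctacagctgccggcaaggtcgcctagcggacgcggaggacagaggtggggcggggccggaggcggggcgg
Gapdh: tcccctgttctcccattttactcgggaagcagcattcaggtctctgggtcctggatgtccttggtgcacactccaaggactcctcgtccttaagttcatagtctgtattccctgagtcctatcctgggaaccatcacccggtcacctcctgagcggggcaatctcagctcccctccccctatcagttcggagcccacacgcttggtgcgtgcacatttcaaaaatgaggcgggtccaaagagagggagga
Hk2 had 2 matches, starting 226 and 52 bases before the start site, and Ldha had 5, of which 2 pairs are the 2 strands of a CACGTG. A match describes the letters of the window and is not a measured binding site. Other letters that either factor may bind were not searched, so a window without a match can still hold a site.

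The libraries labelled MSC differed in the cell types their marker genes point to. The summed FPKM of 8 mesenchymal stroma markers (Cxcl12, Lepr, Pdgfra, Pdgfrb, Prrx1, Ebf3, Col1a1, Col1a2) was 1595 to 2323 in recovered, 23.0 to 178 in pre-leukemic and 2938 to 3503 in healthy libraries. That of 8 leukocyte markers, Ptprc among them, was 40.6 to 193 in recovered, 2249.9 to 2827 in pre-leukemic and 77.0 to 90.7 in healthy libraries, and immunoglobulin genes held 0.0059 to 0.1338% of FPKM in recovered, 54.9 to 80.5% in pre-leukemic and 0.0187 to 0.0301% in healthy libraries. Of these markers 8 of 8 stromal ones were higher and 8 of 8 leukocyte ones lower in recovered than in pre-leukemic libraries, and 7 of 8 stromal ones were lower and 8 of 8 leukocyte ones higher in pre-leukemic than in healthy libraries; none was at 0 in all libraries of a group. The 5 red cell precursor markers Hba-a1, Hba-a2, Hbb-bs, Hbb-bt and Alas2 summed to 1650.3 to 2638 FPKM in recovered, 0 to 6.51 in pre-leukemic, with Hba-a1 listed at 0 in each library, and 33.0 to 46.1 in healthy libraries, with Alas2 at 0. The part that these shifts had in the results on the glycolysis genes was not tested. Healthy 1 and healthy 3 did not differ detectably beyond the sampling noise for genes of 100 to 1000 estimated reads. There the chi-square per gene was 1.01 (p = 0.421 in a chi-square test over 295 genes), against at least 18.6 in the other 23 pairs of the same group. For genes of 10 to 100 estimated reads they did differ beyond that noise, by a small amount. The chi-square per gene was 1.29 there (p = 3.12e-05 in a chi-square test over 436 genes), against at least 8.69 in the other pairs. Healthy 1 and healthy 3 were counted as 1 sample, their mean. Recovered 3 was the shallowest library, with 3 reads on 1 kb worth 1.93 FPKM against 1.05 to 1.3 in the other recovered libraries, 0.495 to 0.725 in pre-leukemic and 0.943 to 1.15 in healthy libraries. In bulk libraries such as these, fewer cells of a type and less RNA per cell cannot be told apart.

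The path did not move as a block. Between pre-leukemic and healthy libraries, Gpi1, Gapdh and Eno1 were higher while Hk2 and Ldha were lower, all on the deposited scale, whereas Gpi1 and Gapdh changed sign and Eno1 came to 0.07 (adjusted p = 0.942) on the TPM scale, where each library has the same sum over all genes, immunoglobulins included. Ldha did not pass there without immunoglobulin genes or under quantile normalization. Recovered libraries had more Hk2, Slc2a1, Pkm and Ldha and less Gapdh and Eno1 than pre-leukemic libraries on the deposited scale, and Gapdh and Eno1 changed sign on the TPM scale. Of these, Slc2a1, Pkm and Ldha did not pass without immunoglobulin genes, nor Pkm and Ldha under quantile normalization. Between recovered and healthy libraries no member passed the test. The test throughout is limma on log2(FPKM + 1) over 13118 genes, with a call at a Benjamini-Hochberg adjusted p below 0.05, and a change is given on that log2 scale, which understates changes of low genes.

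**Figure D1:**
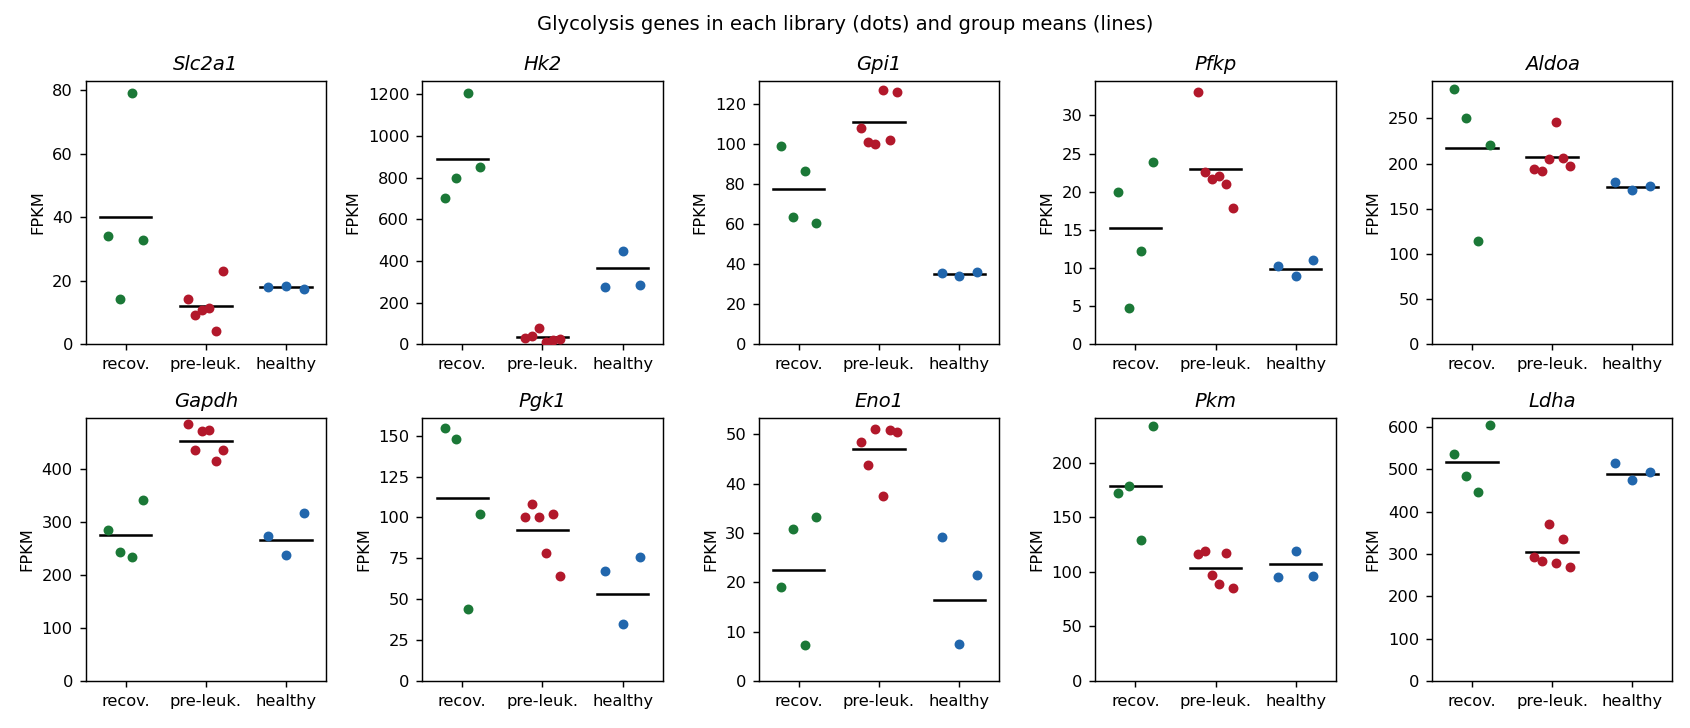
FPKM (vertical axis, from 0) of each of the 10 glycolysis genes in the recovered, pre-leukemic and healthy libraries; each dot is 1 library, each line a group mean over 4, 6 and 2 samples, healthy 1 and 3 counting as 1 sample. Hk2 lies between 701 and 1204 in recovered, 9.10 and 77.5 in pre-leukemic and 275 and 447 in healthy libraries, while Gapdh as deposited, though not on the TPM scale, is highest in the pre-leukemic libraries.

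Slc2a1 (chromosome 4, 119108711 to 119137983, plus strand, GRCm38), which codes for the glucose transporter Glut1, had 34.2, 14.1, 79.2 and 32.7 FPKM in the recovered libraries. In the pre-leukemic libraries it ran from 4.24 through a median of 11.2 to 23.2 FPKM, and in the healthy libraries it was 17.9, 18.5 and 17.4 FPKM. Recovered 3 was far above the other libraries, and recovered 2 lay within the pre-leukemic range. The change was 1.53 ± 0.50 (SE) in recovered against pre-leukemic libraries (limma adjusted p = 0.0242). In pre-leukemic against healthy libraries it was -0.67 ± 0.63 (limma adjusted p = 0.458), but -2.19 (adjusted p = 0.015) on the TPM scale. Without recovered 3 the change in recovered against pre-leukemic libraries was 1.13, with an adjusted p of 0.0732.

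Hk2 (chromosome 6, 82725025 to 82774454, minus strand), the hexokinase isoform that muscle, fat and dividing cells use to phosphorylate glucose, had 701, 796, 1204 and 849 FPKM in the recovered libraries. It ran from 9.10 through a median of 28.5 to 77.5 FPKM in the pre-leukemic libraries and was 275, 447 and 286 FPKM in the healthy libraries. No library of a group reached the range of another group, in the order recovered, healthy, pre-leukemic from high to low. The group means were 887 ± 219.8 FPKM in recovered (SD, n = 4), 34.4 ± 23.4 in pre-leukemic (SD, n = 6) and 364 ± 118 in healthy libraries (SD, n = 2). The mean was 25.8-fold higher in recovered than in pre-leukemic libraries, a change of 4.88 ± 0.44 (limma adjusted p = 1.09e-06), the 130th highest of 13118. It was 10.6-fold lower in pre-leukemic than in healthy libraries, a change of -3.59 ± 0.55 (limma adjusted p = 0.000256), the 475th lowest. Recovered against healthy, the mean was 2.44-fold higher, a change of 1.29 ± 0.59 that did not pass (adjusted p = 0.288). Hk2 was called in both comparisons with pre-leukemic libraries under each of the 24 alternative settings, with changes of 4.55 to 6.28 and of -5.19 to -3.09. Like Hk2, the stroma markers were lowest in the pre-leukemic libraries, where the leukocyte markers were highest, and the red cell precursor markers were highest in the recovered libraries.

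Gpi1 (chromosome 7, 34201330 to 34230336, minus strand), the isomerase that makes fructose 6-phosphate, had 99.1, 63.7, 86.4 and 60.6 FPKM in the recovered libraries. It ran from 100.2 through a median of 105 to 127 FPKM in the pre-leukemic libraries and was 35.6, 34.1 and 35.9 FPKM in the healthy libraries. The 3 groups did not overlap, with the pre-leukemic libraries at the top, the recovered libraries between and the healthy libraries at the bottom. Gpi1 was higher in pre-leukemic than in healthy libraries by 1.63 ± 0.31 (limma adjusted p = 0.00119), but by -0.01 (adjusted p = 0.984) on the TPM scale. The change was -0.53 ± 0.24 in recovered against pre-leukemic libraries (adjusted p = 0.0924) and 1.10 ± 0.32 in recovered against healthy libraries (adjusted p = 0.10).

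Pfkp (chromosome 13, 6579768 to 6648777, minus strand), the platelet-type phosphofructokinase, which catalyses the committed step, was among the lowest members. It had 19.9, 4.78, 12.2 and 23.9 FPKM in the recovered libraries, 17.9 through a median of 21.9 to 33.1 FPKM in the pre-leukemic libraries and 10.2, 9.0 and 11.1 FPKM in the healthy libraries. Each pre-leukemic library was above each healthy one, and the recovered libraries overlapped both. The change was -0.74 ± 0.42 in recovered against pre-leukemic libraries (limma adjusted p = 0.171) and 1.13 ± 0.53 in pre-leukemic against healthy libraries (adjusted p = 0.130).

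Aldoa, the aldolase that splits fructose 1,6-bisphosphate, was not called in a comparison on the deposited scale. It had 283, 250, 114 and 221 FPKM in the recovered libraries, 192 through a median of 201 to 246 FPKM in the pre-leukemic libraries and 179.6, 171 and 175 FPKM in the healthy libraries. Recovered 3 was lowest and recovered 1 highest of the 13. The change was -0.01 ± 0.25 in recovered against pre-leukemic libraries (limma adjusted p = 0.992) and 0.24 ± 0.31 in pre-leukemic against healthy libraries (adjusted p = 0.603), but 1.46 (adjusted p = 0.00631) and -1.42 (adjusted p = 0.0284) on the TPM scale.

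Gapdh (chromosome 6, 125161715 to 125166467, minus strand), which oxidises glyceraldehyde 3-phosphate, had 284, 243, 233 and 341 FPKM in the recovered libraries. It ran from 415 through a median of 454 to 484 FPKM in the pre-leukemic libraries and was 273, 238 and 316 FPKM in the healthy libraries. The pre-leukemic libraries were above each library of the other groups, which overlapped. Gapdh was lower in recovered than in pre-leukemic libraries by a change of -0.73 ± 0.17 (limma adjusted p = 0.00354), but 0.74 on the TPM scale (adjusted p = 0.0931). In pre-leukemic against healthy libraries it was higher by 0.77 ± 0.21 (limma adjusted p = 0.0152), but -0.90 on the TPM scale (adjusted p = 0.103). Without healthy 2, which leaves 1 healthy sample that is assumed to vary like the other groups, the change against healthy libraries was 0.62 with an adjusted p of 0.216.

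Pgk1 (chromosome X, 106187100 to 106203699, plus strand), the kinase of the first ATP-yielding step, had 155, 148, 43.8 and 102 FPKM in the recovered libraries. It ran from 64.4 through a median of 100.1 to 108 FPKM in the pre-leukemic libraries and was 67.5, 34.6 and 75.8 FPKM in the healthy libraries. The groups overlapped, and the change was 0.15 ± 0.36 in recovered against pre-leukemic libraries (limma adjusted p = 0.775) and 0.85 ± 0.46 in pre-leukemic against healthy libraries (adjusted p = 0.187).

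Eno1 (chromosome 4, 150236721 to 150248879, plus strand), the enolase that makes phosphoenolpyruvate, had 19.0, 30.8, 7.34 and 33.2 FPKM in the recovered libraries. It ran from 37.5 through a median of 49.5 to 51.2 FPKM in the pre-leukemic libraries and was 29.2, 7.58 and 21.4 FPKM in the healthy libraries. The pre-leukemic libraries were above each library of the other groups. Eno1 was lower in recovered than in pre-leukemic libraries by a change of -1.21 ± 0.44 (limma adjusted p = 0.0389), but 0.21 on the TPM scale (adjusted p = 0.793), and higher in pre-leukemic than in healthy libraries by 1.67 ± 0.55 (adjusted p = 0.0361), but 0.07 on the TPM scale (adjusted p = 0.942). Both calls were near the threshold: the change in recovered against pre-leukemic libraries was -0.78 without recovered 3 (adjusted p = 0.104), and the change in pre-leukemic against healthy libraries was 0.86 without healthy 2 (adjusted p = 0.482). Aldoa, Gapdh, Pgk1, Eno1 and Ldha have processed pseudogenes or near-identical copies in the mouse genome, so reads could be split among them and their FPKM are less certain than those of Hk2 or Gpi1.

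Pkm (chromosome 9, 59656368 to 59679375, plus strand), the pyruvate kinase of muscle and most other tissues, had 172, 179, 129 and 234 FPKM in the recovered libraries. It ran from 85.1 through a median of 107 to 119 FPKM in the pre-leukemic libraries and was 95.2, 119 and 96.2 FPKM in the healthy libraries. The recovered libraries were above each library of the other groups. Pkm was higher in recovered than in pre-leukemic libraries by 0.76 ± 0.24 (limma adjusted p = 0.0196), against 0.62 without recovered 4 (adjusted p = 0.0622). The change in pre-leukemic against healthy libraries was -0.05 ± 0.30 (limma adjusted p = 0.915), but -1.71 (adjusted p = 0.0174) on the TPM scale.

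Ldha (chromosome 7, 46841475 to 46855627, plus strand), the subunit that favours lactate production, had 536, 484, 446 and 605 FPKM in the recovered libraries. It ran from 268 through a median of 287 to 371 FPKM in the pre-leukemic libraries and was 515, 475 and 494 FPKM in the healthy libraries. The pre-leukemic libraries were below each library of the other groups, which overlapped. Ldha was higher in recovered than in pre-leukemic libraries by 0.76 ± 0.17 (limma adjusted p = 0.00229), with means 1.70-fold apart, and lower in pre-leukemic than in healthy libraries by a change of -0.69 ± 0.21 (adjusted p = 0.0245). The change in recovered against pre-leukemic libraries was 0.43 without immunoglobulin genes (adjusted p = 0.0777) and 0.37 under quantile normalization (adjusted p = 0.165). That in pre-leukemic against healthy libraries was -0.56 (adjusted p = 0.0922) and -0.52 (adjusted p = 0.147) under the same settings, and -0.73 without healthy 2 (adjusted p = 0.141).

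Counted over the path, 4 members were higher and 2 lower in recovered than in pre-leukemic libraries, and 4 did neither. Of all 13118 genes, 14.8% were higher and 25.1% lower in that comparison. The members' median change was 0.07 and that of all genes -0.41. Set against healthy libraries, the pre-leukemic ones had 3 members higher, 2 lower and 5 neither, where 14.2% of all genes were higher and 13.1% lower, and the median change was 0.51 for the members and 0.20 for all genes. In recovered against healthy libraries 0 of 10 members were called by limma, where 0.518% of all genes were higher and 1.99% lower. There 3 members, Hk2, Gpi1 and Pkm, had an unadjusted p below 0.05 and a change above 0, as 5.73% of all genes did. The changes of 10 of 10 members lay above 0, as those of 43.6% of all genes did, with a median of 0.58 against -0.08 for all genes, while without immunoglobulin genes 8 of 10 members and 38.2% of all genes lay above 0. Gpi1 was called there when the filter on low values was left out (adjusted p = 0.0444) and when healthy 1 and 3 stood as separate libraries (adjusted p = 0.0294). The comparisons share libraries, so their changes are not independent of each other.

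The libraries themselves gave a like count. In recovered against pre-leukemic libraries 3 members (Hk2, Pkm, Ldha) were higher in each library, which 10.7% of all genes were, and 3 (Gpi1, Gapdh, Eno1) were lower in each, which 16.5% were. Of the members, 5 (Gpi1, Pfkp, Aldoa, Gapdh, Eno1) were higher in each pre-leukemic than in each healthy library, against 23.7% of all genes, and 2 (Hk2, Ldha) were lower in each, against 20.6%. Against healthy libraries, 3 members (Hk2, Gpi1, Pkm) were higher in each recovered library, as 6.64% of all genes were, and 0 were lower in each, where 10.7% of all genes were.

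Rescaling each library to its sum without the 110 immunoglobulin genes changed which members passed. In recovered against pre-leukemic libraries only Hk2 remained higher, with a change of 4.55 (limma adjusted p = 1.81e-06), where 12.8% of all genes were. Slc2a1 (1.21, adjusted p = 0.0510), Pkm (0.42, adjusted p = 0.194) and Ldha (0.43, adjusted p = 0.0777) no longer passed. Gpi1 (-0.87, adjusted p = 0.0113) joined Gapdh (-1.06, adjusted p = 0.000412) and Eno1 (-1.53, adjusted p = 0.0155) among the lower members, where 31.2% of all genes were lower, although the 3 lay above 0 on the TPM scale (0.92, 0.74 and 0.21). Hk2, Gpi1, Gapdh and Eno1 kept their calls in pre-leukemic against healthy libraries, where 16.2% of all genes were higher and 12.7% lower, and Ldha (-0.56, adjusted p = 0.0922) did not. In recovered against healthy libraries 0 of 10 were called, where 0.343% of all genes were higher and 2.23% lower, and 1, Gpi1, had an unadjusted p below 0.05 (0.90, adjusted p = 0.178), where 4.11% of all genes were higher and 12.6% lower by the unadjusted p. Quantile normalization left 2 members higher in recovered than in pre-leukemic libraries, Slc2a1 and Hk2, and 3 lower, Gpi1, Gapdh and Eno1. Of all 13118 genes, 2460 were higher and 2424 lower in that setting. The TPM scale had 6 members higher, Slc2a1, Hk2, Aldoa, Pgk1, Pkm and Ldha, and 0 lower, with the changes of 10 of 10 members above 0. Over the whole table, 3814 genes were higher and 1192 lower on that scale. Scales also shift the genes as a whole, since the median change of all genes in pre-leukemic against healthy libraries was 0.20 as deposited, 0.31 without immunoglobulin genes and -1.12 on the TPM scale, and in recovered against pre-leukemic libraries -0.41, -0.63 and 0.62 on the same 3 scales. Relative to these medians, Hk2 was 5.28, 5.18 and 5.65 above in recovered against pre-leukemic libraries, and Gapdh -0.32, -0.43 and 0.11.

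**Figure D2:**
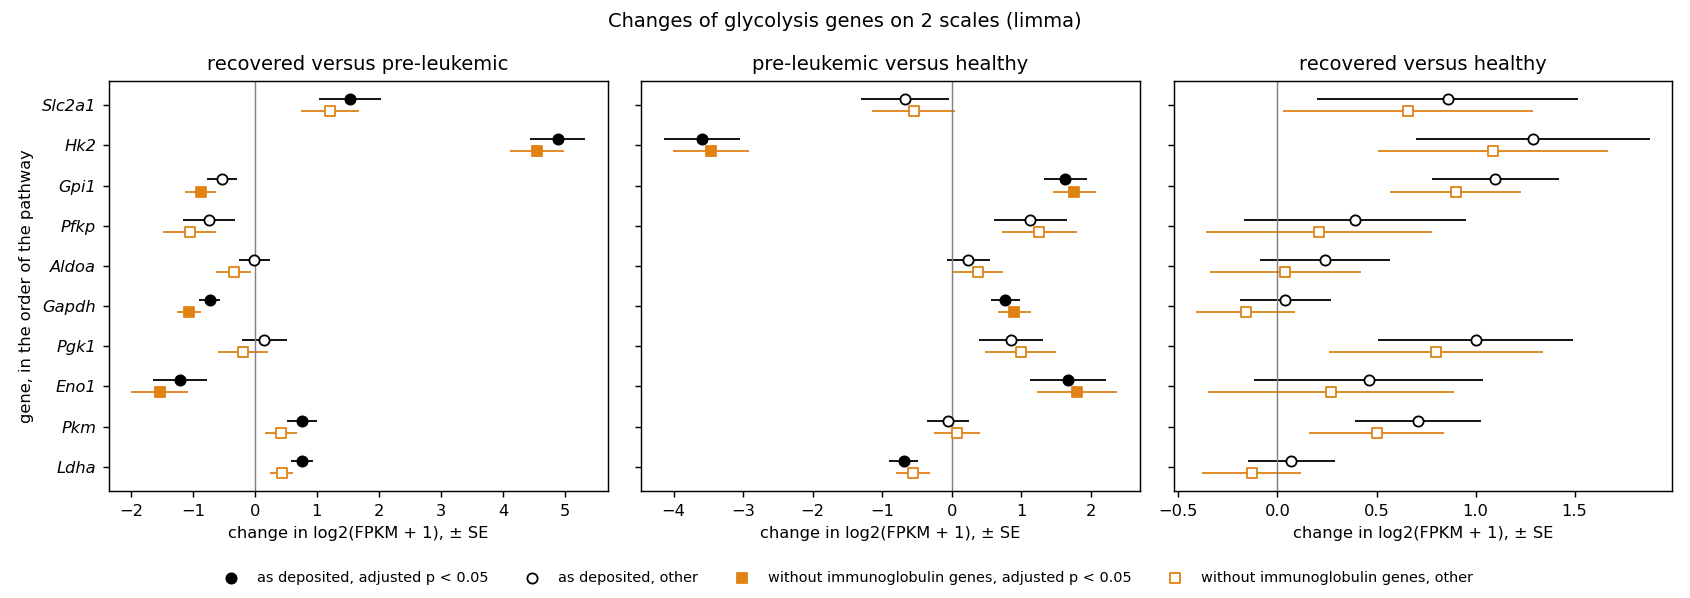
Change of each glycolysis gene in log2(FPKM + 1) with its limma standard error (horizontal axis; the 3 panels have their own ranges) in the 3 comparisons, as deposited (black circles) and after rescaling without immunoglobulin genes (orange squares); filled symbols have an adjusted p below 0.05. Hk2 stands farthest from 0 in the first 2 panels, at 4.88 and -3.59 as deposited, and the third panel has no filled symbol.

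Ratios between members of 1 library do not depend on how that library was scaled, and they show the shift within the path. The ratio of Hk2 to Gapdh was 2.47, 3.27, 5.16 and 2.49 in the recovered libraries, 0.0192 through a median of 0.0620 to 0.164 in the pre-leukemic libraries, and 1.01, 1.88 and 0.906 in the healthy libraries. Hk2 was thus above Gapdh in 4 of 4 recovered, 0 of 6 pre-leukemic and 2 of 3 healthy libraries. The ratio of Ldha to Gapdh was 1.89, 1.99, 1.91 and 1.77 in the recovered libraries, 0.591 through a median of 0.631 to 0.810 in the pre-leukemic libraries, and 1.89, 2.0 and 1.56 in the healthy libraries. Recovered and healthy libraries overlapped in this second ratio, and the pre-leukemic libraries lay below both. Hk2 made up 30.4 to 51.1% of the summed FPKM of the 10 members in recovered, 0.663 to 5.14% in pre-leukemic and 18.3 to 28.8% in healthy libraries. That sum was 2214 to 2503 FPKM in recovered, 1295 to 1507 in pre-leukemic and 1497 to 1554 in healthy libraries. Without Hk2 it was 1151 to 1654 FPKM in recovered, 1268 to 1429 in pre-leukemic and 1107 to 1244 in healthy libraries, so that the recovered range overlapped both others and the pre-leukemic libraries lay above the healthy ones on the deposited scale. By level, the order of means in recovered libraries began with Hk2 (887 FPKM), Ldha (518) and Gapdh (275). In pre-leukemic libraries it began with Gapdh (453 FPKM), Ldha (305) and Aldoa (207), and in healthy libraries with Ldha (489.9 FPKM), Hk2 (364) and Gapdh (266).

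**Figure D3:**
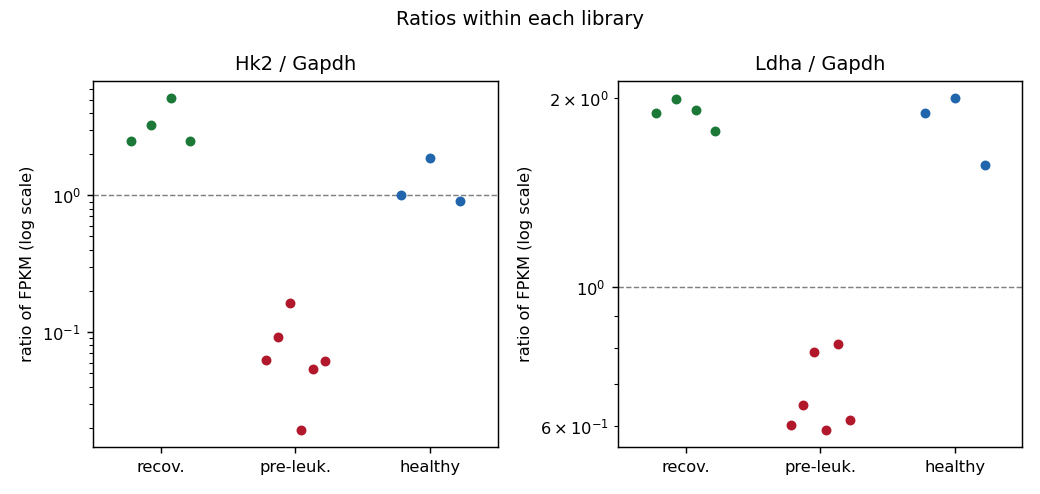
Ratio of Hk2 to Gapdh (left) and of Ldha to Gapdh (right) in FPKM within each library, on log axes, with a dashed line at a ratio of 1; each dot is 1 library. In both panels the pre-leukemic libraries, at 0.0192 to 0.164 and 0.591 to 0.810, lie below those of the recovered and healthy groups.

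Most steps have several isoforms, and the share of the member within its family is also free of the library's scale. Hk2 made up 99.5, 99.6, 98.6 and 100% of the FPKM of Hk1, Hk2 and Hk3 in the recovered libraries, 69.1 through a median of 78.4 to 94.5% in the pre-leukemic libraries and 98.5, 98.4 and 98.8% in the healthy libraries. The pre-leukemic libraries were below all others, and their remainder was Hk1, at 2.31 to 3.93 FPKM, and Hk3, the hexokinase of white blood cells, at 0.160 to 8.04 FPKM, which was listed at 0 in the recovered libraries. Slc2a1 made up 79.2 ± 18.1% of Slc2a1 and Slc2a3, the high-affinity transporter Glut3, in recovered libraries (SD, n = 4), 41.9 ± 16.0% in pre-leukemic (n = 6) and 73.1 ± 6.79% in healthy libraries (n = 2). Ldha made up 97.6 ± 3.13% of Ldha and Ldhb, the subunit that favours pyruvate, in recovered, 88.4 ± 4.99% in pre-leukemic and 99.1 ± 0.486% in healthy libraries. Eno1 went the other way among the enolases, with 69.8 ± 18.3% in recovered, 88.7 ± 9.30% in pre-leukemic and 44.6 ± 11.1% in healthy libraries, the others being the neuronal enolase Eno2 and the muscle enolase Eno3. Aldoa held 98.9 ± 2.09% in recovered, 97.3 ± 2.32% in pre-leukemic and 100 ± 0.0437% in healthy libraries. Pfkp held 60.5 ± 30.0% in recovered, 77.5 ± 6.65% in pre-leukemic and 54.3 ± 21.5% in healthy libraries, the recovered libraries running from 22.3 to 89.3%.

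Differences in these shares were tested by two-sided exact permutation over samples, 18 tests in all. In recovered against pre-leukemic libraries the share of Hk2 was 20.5 percentage points higher (exact p = 0.0143), that of Slc2a1 37.4 points (exact p = 0.0143) and that of Ldha 9.24 points (exact p = 0.0190). In pre-leukemic against healthy libraries the share of Hk2 differed by -19.6 points, that of Pfkp by 23.2 and that of Eno1 by 44.0, each with the smallest p the design allows (exact p = 0.0357). These 6 had a Benjamini-Hochberg adjusted p of 0.107 over the 18 exact tests, and 0 of 18 passed after adjustment. With 4 against 2 samples the exact p in recovered against healthy libraries cannot go below 0.0667.

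**Figure D4:**
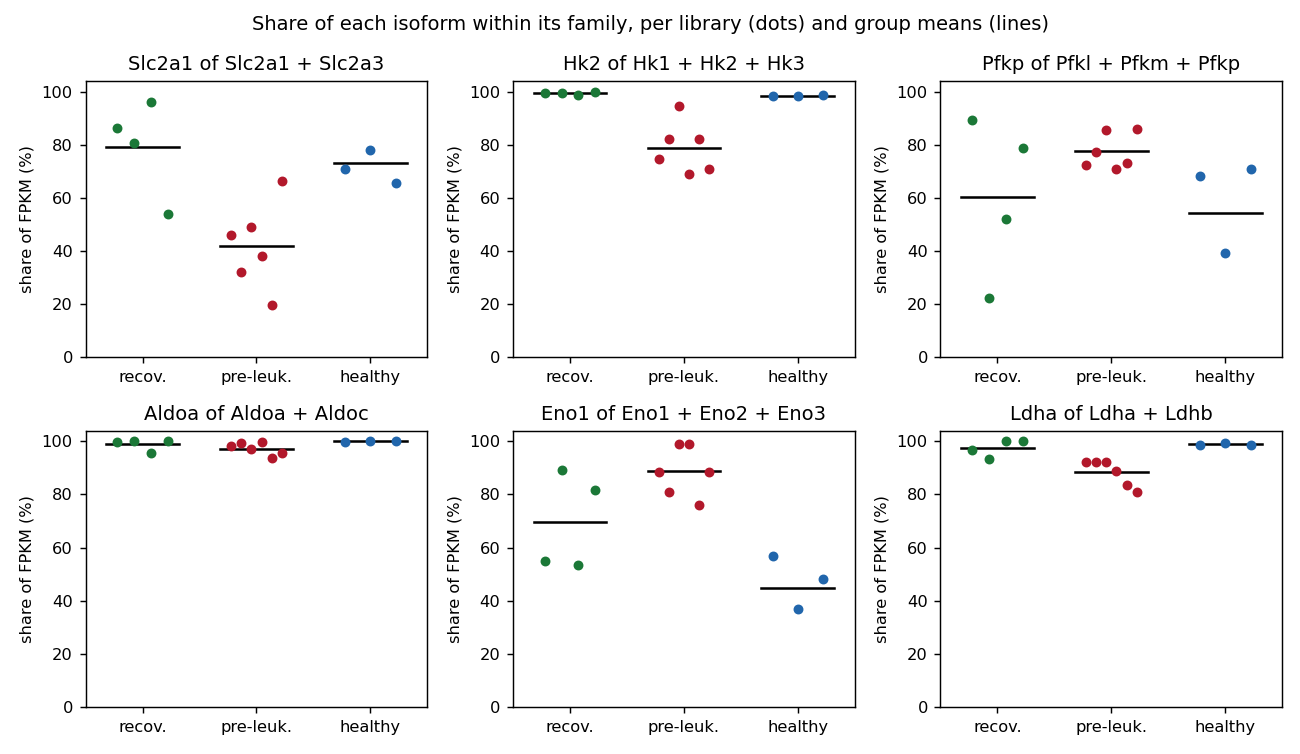
Share (%) of the FPKM of an isoform family that the glycolysis gene named in each panel holds, per library (dots) with group means (lines), in recovered, pre-leukemic and healthy libraries. Hk2 and Ldha shares are lowest in the pre-leukemic libraries, at 69.1 to 94.5% and 80.9 to 92.3%, and the Eno1 share is lowest on average in the healthy libraries, at 36.8 to 56.8%.

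The steps left out were carried by Tpi1, triose phosphate isomerase, and Pgam1, phosphoglycerate mutase. Tpi1 had 113, 91.3, 64.3 and 77.8 FPKM in the recovered libraries, 32.4 through a median of 42.4 to 53.1 FPKM in the pre-leukemic libraries and 73.4, 44.4 and 68.7 FPKM in the healthy libraries. It was higher in recovered than in pre-leukemic libraries by 0.99 ± 0.28 (limma adjusted p = 0.0117). Pgam1 averaged 38.5 ± 22.4 FPKM in recovered, 39.7 ± 9.34 in pre-leukemic and 46.0 ± 0.351 in healthy libraries and passed in no comparison (limma adjusted p = 0.607 to 0.806). Over all 20 other transporters, enzymes and isoforms of the path, 15 passed the filter on low values. In recovered against pre-leukemic libraries 2 of the 15 were higher (Tpi1, Eno2) and 4 lower (Slc2a6, Hk3, Pgam2, Ldhb), where 14.8% of all genes were higher and 25.1% lower, with a median change of -0.74 against -0.41 for all genes. Without immunoglobulin genes 1 (Eno2) was higher and 7 were lower, with Slc2a3, Aldoc and Bpgm added, where 12.8% and 31.2% of all genes were. Pre-leukemic libraries had 2 higher (Slc2a6, Pgam2) and 0 lower than healthy libraries by limma, where 14.2% of all genes were higher and 13.1% lower. At an unadjusted p below 0.05 also 0 were lower, where 2290 of all 13118 genes were. The median change of the 15 was 0.45. In recovered against healthy libraries 0 of 15 passed by limma, where 0.518% of all genes were higher and 1.99% lower. At an unadjusted p below 0.05 the count was also 0, where 5.73% of all genes were higher and 10.7% lower.

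Downstream of the path, some genes for the handling of lactate and pyruvate passed the test. Slc16a1, the lactate and pyruvate transporter MCT1, had 35.1, 78.3, 119.7 and 76.0 FPKM in the recovered libraries, 1.26 through a median of 2.60 to 3.54 FPKM in the pre-leukemic libraries and 22.7, 31.6 and 24.5 FPKM in the healthy libraries. The groups did not overlap, with changes of 4.36 ± 0.40 in recovered against pre-leukemic (limma adjusted p = 1.48e-06) and -3.02 ± 0.51 in pre-leukemic against healthy libraries (adjusted p = 0.000531). Pdk4, a kinase that shuts off pyruvate dehydrogenase, had 15.9, 32.2, 68.5 and 23.3 FPKM in the recovered libraries and 5.28, 6.83 and 5.20 FPKM in the healthy libraries, and was listed at 0 in each pre-leukemic library except pre-leukemic 1, at 0.0591 FPKM. It was higher in recovered than in pre-leukemic libraries by 4.95 ± 0.42 (limma adjusted p = 7.06e-07), a size that depends on the pseudocount of 1. Adpgk, an ADP-dependent glucokinase, went the other way, with 5.05 ± 3.03 FPKM in recovered, 45.2 ± 10.8 in pre-leukemic and 8.39 ± 0.0522 in healthy libraries, lower in recovered than in pre-leukemic libraries by a change of -3.16 ± 0.47 (limma adjusted p = 0.000116). Of the 21 of 27 genes that passed the filter among those for the control of glycolysis and the fate of pyruvate, 3 were higher (Slc16a1, Mpc2, Pdk4) and 4 lower (Pfkfb4, Tigar, Adpgk, Mpc1) in recovered than in pre-leukemic libraries, against 14.8% and 25.1% of all genes. In pre-leukemic against healthy libraries 2 were higher (Tigar, Adpgk) and 2 lower (Slc16a1, Pdk4), against 14.2% and 13.1% of all genes. These shares of the list are near or below those of all genes. By limma 0 were called in recovered against healthy libraries, where 3 (Slc16a1, Mpc2, Pdk4) were higher and 2 (Pfkfb4, Mpc1) lower at an unadjusted p below 0.05, as 5.73% and 10.7% of all genes were, and Pfkfb4 was lower without immunoglobulin genes (-2.89, adjusted p = 0.0476).

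In the pentose phosphate pathway, the branch that takes glucose 6-phosphate to NADPH and ribose, 2 of 8 genes were lower in recovered than in pre-leukemic libraries, a share like the 25.1% of all genes, and 0 were higher by limma, also at an unadjusted p below 0.05, against 14.8% of all genes by the adjusted p. G6pdx, its first enzyme, averaged 5.57 ± 5.81 FPKM in recovered, 27.0 ± 11.1 in pre-leukemic and 7.68 ± 0.406 in healthy libraries, with a change of -2.38 ± 0.51 in recovered against pre-leukemic libraries (limma adjusted p = 0.00198). Taldo1, transaldolase, averaged 72.6 ± 23.3 FPKM in recovered, 134 ± 17.5 in pre-leukemic and 45.1 ± 5.71 in healthy libraries. Taldo1 was lower in recovered than in pre-leukemic libraries (-0.91 ± 0.25, limma adjusted p = 0.0102) and higher in pre-leukemic than in healthy libraries (1.55 ± 0.32, adjusted p = 0.00226). It was the 1 of 8 called there, where 14.2% of all genes were higher. Without immunoglobulin genes 2 of 8 were higher in that comparison, where 16.2% of all genes were. The changes of G6pdx and Taldo1 are on the deposited scale, and those on the TPM scale are not given here.

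Of the 23 of 26 genes of the hypoxia response, the programme that HIF-1 drives, that passed the filter, 10 were higher and 1, Hif1a, lower in recovered than in pre-leukemic libraries, where 14.8% of all genes were higher and 25.1% lower, with a median change of 0.82 against -0.41 for all genes. Without immunoglobulin genes 9 were higher and 3 lower (Pdk1, Hif1a, Ero1l), where 12.8% of all genes were higher and 31.2% lower. Pre-leukemic libraries had 1 higher, Hif1a, and 7 lower than healthy libraries, where 14.2% of all genes were higher and 13.1% lower, with a median of -0.71 against 0.20 for all genes. Ndrg1, a stress-induced gene of the list, had 131, 148, 210.4 and 225 FPKM in the recovered libraries, 1.47 through a median of 2.41 to 9.04 FPKM in the pre-leukemic libraries and 124, 122 and 119 FPKM in the healthy libraries. The pre-leukemic libraries were far below all others, with changes of 5.51 ± 0.41 in recovered against pre-leukemic (limma adjusted p = 2.14e-07) and -5.0 ± 0.52 in pre-leukemic against healthy libraries (adjusted p = 1e-05). Plod2 and P4ha1, which hydroxylate collagen and are also genes of matrix-making cells, showed the same order, with Plod2 averaging 63.2 ± 26.8 FPKM in recovered, 1.32 ± 1.26 in pre-leukemic and 55.5 ± 19.3 in healthy libraries. P4ha1 averaged 114 ± 51.4 FPKM in recovered, 12.9 ± 4.44 in pre-leukemic and 81.4 ± 24.5 in healthy libraries. Higd1a was the 1 gene of this list called in recovered against healthy libraries (1.85 ± 0.46, limma adjusted p = 0.0497), where 0.518% of all genes were higher. Without immunoglobulin genes 0 were called there, where 0.343% of all genes were higher.

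On the deposited scale, the only one given in this paragraph, the 2 transcription factors changed in opposite directions. On the TPM scale the median change of all genes was -1.12, against 0.20 as deposited, in pre-leukemic against healthy libraries. In recovered against pre-leukemic libraries it was 0.62, against -0.41 as deposited. The changes of Hif1a and Myc on the TPM scale are not given here. Hif1a, the oxygen-regulated subunit of HIF-1, which is controlled mainly as protein, averaged 9.98 ± 4.83 FPKM in recovered, 34.9 ± 16.5 in pre-leukemic and 9.83 ± 5.13 in healthy libraries. It was lower in recovered than in pre-leukemic libraries (-1.76 ± 0.47, limma adjusted p = 0.00907) and higher in pre-leukemic than in healthy libraries (1.70 ± 0.60, adjusted p = 0.0482). Myc averaged 89.6 ± 19.7 FPKM in recovered, 25.4 ± 12.6 in pre-leukemic and 131 ± 34.5 in healthy libraries, higher in recovered than in pre-leukemic libraries (1.94 ± 0.42, limma adjusted p = 0.00236) and lower in pre-leukemic than in healthy libraries (-2.48 ± 0.54, adjusted p = 0.00323).

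**Figure D5:**
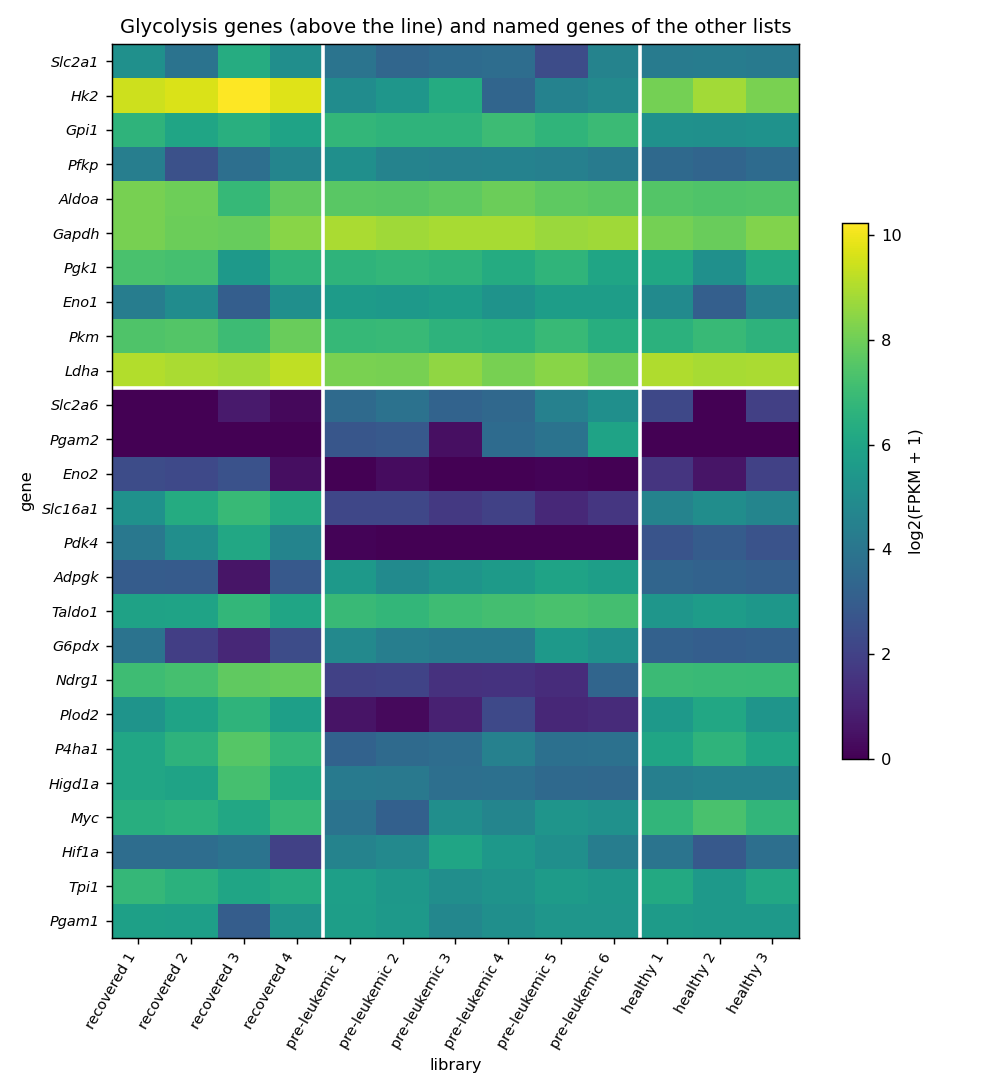
Colour gives log2(FPKM + 1) of the 10 glycolysis genes (above the white line) and 16 named genes of the other lists (below it) in each of the 13 libraries, with white lines between the recovered, pre-leukemic and healthy groups. Hk2, Slc16a1, Pdk4, Ndrg1 and Plod2 are darkest in the 6 pre-leukemic libraries, where Adpgk is brightest.

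As a description, the genes outside these lists were searched for the pattern most like the mean log2(FPKM + 1) of the 10 members over the 12 samples. Among 8281 genes with a mean of at least 5 FPKM, the highest Pearson correlations were those of Kifap3 (0.911), Cxcl5 (0.897), Ranbp1 (0.889), Hsph1 (0.871) and Bbs5 (0.843). Each of them had its highest mean in the recovered libraries, with Kifap3 averaging 16.2 FPKM in recovered, 3.34 in pre-leukemic and 5.23 in healthy libraries. Genes most like Hk2 alone, a search added after its values were seen, were Tnfrsf12a, Sox5 and Phlda1, each at 0.978. Tnfrsf12a averaged 605 FPKM in recovered, 6.30 in pre-leukemic and 182 in healthy libraries. The samples share their libraries' scale and their groups, so these correlations carry no test.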

How the data were processed

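RNA of 13 libraries was measured by RNA-seq, per the labels' protocols after reverse transcription by a published method and Nextera XT library preparation. The FPKM values were made and deposited by the authors, per the submitters' processing notes with bcl2fastq, TopHat, Cufflinks 2.2.1 and Cuffnorm on mm10. Cuffnorm's library-size method, which can move all genes of a library together, and the annotation: not given in the sources used here. Of 33433 rows, 1 had no gene name, held 0% of the FPKM and was left out. The members and lists were chosen with earlier results of these data known.

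Depth came from the FPKM of single reads, read off the low values of 5248 genes of at least 800 bp (tolerance 0.06 on the log2 scale), and covers counting error only. Healthy 1 and 3 were averaged, which left 12 samples and 9 residual degrees of freedom. limma 3.58.1 (R 4.3.3; lmFit, eBayes with trend, no covariates) was run on log2(FPKM + 1) of the 13118 genes that reached 1 FPKM in 3 or more libraries, all 3 groups in 1 fit, with Benjamini-Hochberg adjustment over all of them, and again after each library was rescaled to 601856 FPKM over all but the 110 immunoglobulin genes. The fit and the permutation test were tested on simulated data. Shares were tested by exact permutation (Python 3.11.15, scipy 1.17.1). Coordinates are those of GENCODE M21 (GRCm38), in which 32095 symbols were found. Aldoa had more than 1 entry there, so no gene position is given for it. Promoter windows are from RefSeq (GRCm38.p6). Named genes are the 10 members, up to 3 genes per other list and comparison with the smallest p, Tpi1 and Pgam1, summed cell type markers (1 of them is not reported here), and the 5 genes most like the members' mean. Other genes named beside a small count were chosen after their values were seen.

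Alternatives were other pseudocounts, filters, scalings, weights and groupings, and leaving out each library.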

Additional observations from a re-analysis of the deposited data

Results flagged for a closer look

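In 3 of the 32 groups of 4 to 10 values looked at, 1 library stood apart from the others by Dixon's criterion at the 95% level, where chance gives about 1 in 20 groups. Pfkp was 33.1 FPKM in pre-leukemic 1, against 17.9 to 22.6 FPKM in the other pre-leukemic libraries. Aldoa was 246 FPKM in pre-leukemic 4, against 192 to 206 FPKM in the other pre-leukemic libraries. The share of Aldoa within Aldoa and Aldoc was 95.7% in recovered 3, against 99.8 to 100% in the other recovered libraries.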

How the results depend on the processing

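Of 720 member changes (30 changes under 24 alternative settings), 640 kept their direction and their side of the threshold, 32 no longer passed, 12 newly passed and 36 changed sign. On the TPM scale, which includes the immunoglobulin genes and so by construction lowers all other genes of the pre-leukemic libraries, Gpi1 was -0.01, Pfkp -0.42, Aldoa -1.42, Gapdh -0.90 and Pgk1 -0.79 in pre-leukemic against healthy libraries, Gpi1 0.92, Pfkp 0.63, Aldoa 1.46, Gapdh 0.74 and Eno1 0.21 in recovered against pre-leukemic libraries, and Gapdh -0.16 and Ldha -0.13 in recovered against healthy libraries. The other sign changes were of changes that passed under neither setting. Under quantile normalization they were Pkm 0.02, Pgk1 -0.15, Aldoa -0.11, Gapdh -0.33 and Ldha -0.15, and without immunoglobulin genes Pkm 0.08, Pgk1 -0.19, Gapdh -0.16 and Ldha -0.13, with Pkm in pre-leukemic against healthy, Pgk1 in recovered against pre-leukemic and the rest in recovered against healthy libraries. Array weights gave Pkm 0.01 and Aldoa 0.15, and healthy 1 and 3 as separate libraries gave Gapdh -0.01. Leaving out 1 library, recovered against pre-leukemic, Aldoa ran from -0.16 to 0.28 and Pgk1 from -0.06 to 0.54, recovered against healthy, Eno1 from -0.35 to 0.89, Gapdh from -0.11 to 0.12, Ldha from -0.01 to 0.14 and the Pfkp share from -8.99 to 19.0 points, and pre-leukemic against healthy, Pkm from -0.09 to 0.10. The members higher in pre-leukemic than in healthy libraries were 3, but 0 on the TPM scale and 5 with array weights; those lower were 2, but 5 on the TPM scale, 1 with quantile normalization and 1 without immunoglobulin genes. The members higher in recovered than in pre-leukemic libraries were 4, but 2 with quantile normalization, 1 without immunoglobulin genes, 3 with array weights and 6 on the TPM scale; those lower were 2, but 0 on the TPM scale, 1 each without the filter and with array weights, and 3 each with quantile normalization and without immunoglobulin genes. In recovered against healthy libraries the 0 higher became 1 without the filter and 1 with healthy 1 and 3 separate. Leaving out 1 library gave 1 to 4 higher and 1 to 2 lower in pre-leukemic against healthy libraries, 3 to 4 higher and 1 to 2 lower in recovered against pre-leukemic libraries, and 0 in recovered against healthy libraries. The cause was not tested. Libraries with the same replicate number did not deviate together (correlations of -0.0194 to 0.0337). With the number as a block, 2 members were higher and 2 lower in pre-leukemic than in healthy libraries, 3 higher and 1 lower in recovered than in pre-leukemic libraries, 0 were called in recovered against healthy libraries, and Gapdh was -0.06 there. Over the whole table, without healthy 2 the calls in pre-leukemic against healthy libraries were 751 higher and 829 lower, against 1858 and 1725, and in recovered against healthy libraries 4 and 2, against 68 and 261. The TPM scale gave 787 higher and 4284 lower in pre-leukemic against healthy libraries, and 3814 higher and 1192 lower, against 1945 and 3299, in recovered against pre-leukemic libraries. In the same 2 comparisons, array weights gave 2668 higher and 2270 lower, and 1726 and 2481. The replicate number as a block gave 1953 and 1747, and 1750 and 2777. Without the filter, 1871 were higher and 2937 lower in recovered against pre-leukemic libraries, and 63 higher in recovered against healthy libraries. With healthy 1 and 3 separate, 231 were higher in recovered against healthy libraries.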
